A study of Mus musculus with 24 samples.

Results

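The comparison set 2 ATAC-seq libraries of mouse embryonic stem cells that carried a mutated CTCF transgene, taken after 12 hours of the auxin IAA, against 2 libraries of a control line that had received no IAA. By the labels, IAA targeted the cells' own CTCF in the mutated line, which overexpressed a mutated CTCF. The comparison gives the difference in open chromatin that remained against untreated cells. Levels of CTCF protein were not part of the peak lists. ATAC-seq marks open chromatin by cutting it with a transposase, and each library was represented by its deposited list of peaks. Remaining loss was defined as a 501 bp window that held a peak in both untreated libraries and in neither library of the mutated line. A new window was the reverse. The windows were centred on peak summits of the 8 libraries of the CTCF lines, and 179227 windows called by at least 2 of these libraries were used. Of these, 5848 were lost and 7223 were new. The 4 libraries compared were part of a series of 24.

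All cells were E14 mouse embryonic stem cells, an established line. In every group the cells' own CTCF carried an auxin-inducible degron (AID), a tag through which IAA directs the protein to degradation. The untreated cells were CTCF AID cells with an overexpressed control and no IAA (oectrl). The mutated line was CTCF AID cells with overexpressed mutated CTCF and IAA (oeCTCFmut_IAA). The labels did not give the position of the mutation, the promoter of the transgene or whether a line was 1 clone. The comparison therefore changed the line, the transgene and the IAA treatment together, and these cannot be told apart by these 4 libraries. The control line with IAA for 12 hours (oectrl_IAA, 2 libraries) and the line with overexpressed wild type CTCF and IAA for 12 hours (oeCTCFwt_IAA, 2 libraries) were used beside it. A separate set of CTCF AID cells in serum, without IAA or with IAA for 12 hours (2 libraries each), carried no transgene according to its labels. The growth protocol described a serum-free medium with LIF and inhibitors of MEK and GSK3, which hold embryonic stem cells in a naive state. The same protocol is given for the samples labelled serum condition, and the label of the sample was followed for them.

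CTCF is a zinc finger protein that binds a long, well conserved DNA sequence, keeps the DNA beside it free of nucleosomes and stops the extrusion of chromatin loops by cohesin. Sites that depend on CTCF for their accessibility therefore lose their ATAC-seq peak when the protein is removed, while enhancers and active promoters are opened by other factors and by the transcription machinery. A mutated CTCF can in principle be impaired in DNA binding, in its contacts with cohesin or in its contacts with other partners.

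The lists held 132912 and 139221 peaks in the untreated libraries and 146703 and 130363 in the mutated line. Read depth was not stated in the lists, so no counting interval for a peak was computed. Replicates disagreed often: of the windows called by at least 1 library of a group, 23.4% were called by only 1 of the 2 untreated libraries and 24.8% by only 1 of the 2 libraries of the mutated line. The labels did not say whether replicates came from separate cultures, so the spread may be technical. A peak in a part of chromosome 1 that resembles mitochondrial DNA, with 79.5% of its 25-base stretches found in the mitochondrial genome, was listed in both untreated libraries and in mutated-line replicate 1, and not in replicate 2. Peaks over coding exons of Ctcf, away from its promoter, numbered 0 and 0 in the untreated libraries, 0 and 0 in the control line with IAA, 2 and 2 in the mutated line and 3 and 2 in the wild-type line. Such peaks were thus listed in the 4 libraries labelled as carrying a CTCF transgene and in none of the other 4, and their origin was not tested.

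The sequences below show the matches to the CTCF consensus, a pattern of 14 positions, in the 8 strongest lost windows that held one, and in 4 strong windows that were open in both untreated libraries and in both libraries of the mutated line but closed in both IAA-treated control libraries. They are shown because the lost and the retained sites are the members that the comparison turns on, and both kinds carry recognisable CTCF sites. Each is printed in the orientation of the consensus, with the 14 matched positions in capitals and 20 bases to each side in lower case, from the RefSeq copy of GRCm38 (mm10). The coordinates are those of the window.
Lost near Gm12281, chr11:62675677-62676177, minus strand: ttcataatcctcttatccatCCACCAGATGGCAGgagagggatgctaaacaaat
Lost near Gm37002, chr14:87215027-87215527, minus strand: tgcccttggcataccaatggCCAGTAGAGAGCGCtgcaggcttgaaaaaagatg
Lost near Pdcd1, chr1:94079030-94079530, minus strand: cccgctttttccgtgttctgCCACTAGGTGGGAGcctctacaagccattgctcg
Lost near Spink2, chr5:77183273-77183773, minus strand: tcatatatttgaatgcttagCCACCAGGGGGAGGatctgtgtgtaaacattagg
Lost near Nfrkb, chr9:31405185-31405685, plus strand: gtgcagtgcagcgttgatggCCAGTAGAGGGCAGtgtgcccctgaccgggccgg
Lost near Psma1, chr7:114281604-114282104, minus strand: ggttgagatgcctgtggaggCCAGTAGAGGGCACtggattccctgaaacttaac
Lost near Gm24249, chr7:88097661-88098161, plus strand: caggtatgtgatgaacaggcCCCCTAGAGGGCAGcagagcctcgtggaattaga
Lost near Mybpc3, chr2:91115043-91115543, plus strand: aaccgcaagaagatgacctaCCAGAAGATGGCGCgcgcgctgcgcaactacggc
Retained near 4933415A04Rik, chr11:43586245-43586745, minus strand: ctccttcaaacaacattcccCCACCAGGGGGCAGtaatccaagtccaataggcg
Retained near 4930564D02Rik, chr3:105114220-105114720, plus strand: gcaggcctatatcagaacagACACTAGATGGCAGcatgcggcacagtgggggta
Retained near n-R5s172, chr5:53355029-53355529, plus strand: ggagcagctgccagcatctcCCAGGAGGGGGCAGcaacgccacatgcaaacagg
Retained near Gm26027, chr3:121320873-121321373, plus strand: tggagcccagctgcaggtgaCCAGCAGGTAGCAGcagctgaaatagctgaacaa

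CTCF sites remained under-represented among the open regions of the mutated line. The CTCF consensus, with at most 1 mismatch on either strand and within 250 bp of the summit, was found in 6.61% and 6.50% of the peaks of the untreated libraries and in 4.78% and 4.82% of the peaks of the mutated line. The groups did not overlap, and the difference of -1.75 percentage points was larger than the combined spread of the replicates (SD 0.081 percentage points). With 2 libraries against 2, the two-sided exact permutation test gave p = 0.333, the smallest value this design allows, and 0.417 after Benjamini-Hochberg adjustment over the 5 such tests made, so no p below 0.05 could be reached. Measured the same way, the control line with IAA had 3.31% and 3.29%, and the wild-type line 5.40% and 5.22%. The mutated line thus lay between the depleted control and the untreated cells, and below the wild-type line, with no overlap between these groups of 2. This order was not tested. The same consensus with its letters in reversed order was found in 0.306% to 0.339% of the peaks of the untreated, mutated and depleted libraries, with no such order.

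**Figure D1:**
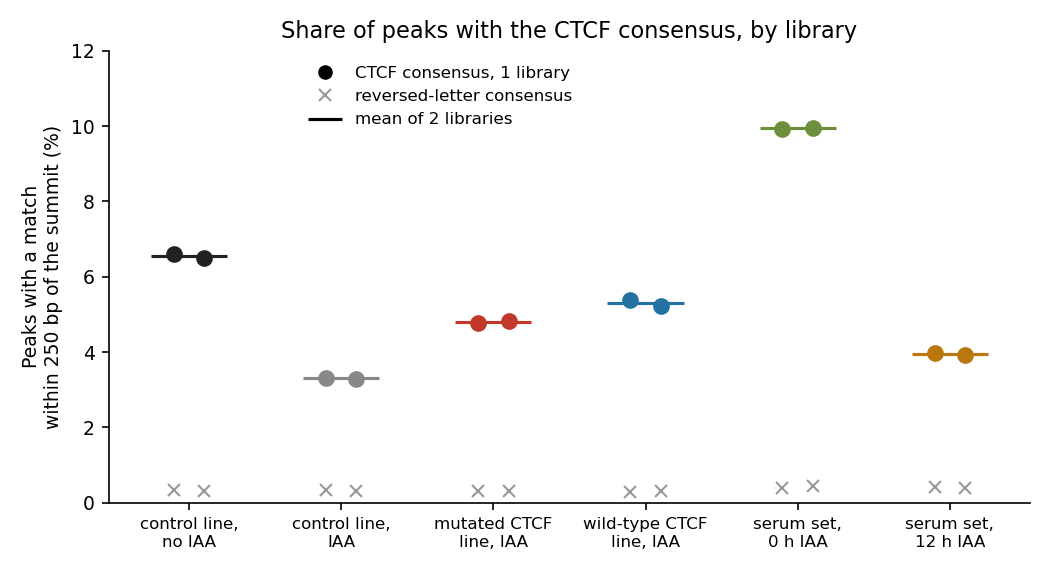
Percentage of peaks with the CTCF consensus within 250 bp of the summit (circles, 1 per library) and with the reversed-letter consensus (crosses), with a line at the mean of the 2 libraries of each group. The mutated line sits at 4.78% and 4.82%, below the untreated libraries at 6.61% and 6.50% and above the control line with IAA at 3.31% and 3.29%, while the crosses lie between 0.299% and 0.435%.

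Promoters took a similar part of the lists in both groups. Peak summits within 500 bp of an annotated transcription start made up 13.4% and 13.0% of the untreated lists and 12.6% and 13.5% of the mutated-line lists. The groups overlapped, and the difference of -0.162 percentage points was smaller than the spread of the replicates (SD 0.744; exact permutation p = 1). Leaving out untreated replicate 1 turned it to 0.063, and leaving out mutated-line replicate 1 to 0.314.

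Fewer CTCF sites were called in the mutated line. Of the 179227 windows, 9700 (5.41%) held the CTCF consensus, and the untreated libraries called 86.8% and 88.3% of them. The mutated-line libraries called 74.3% and 68.5%. The groups did not overlap, and they differed by -16.1 percentage points, more than the replicates did (combined SD 4.28; exact permutation p = 0.333, the smallest possible, adjusted 0.417). The 9700 windows were chosen partly by the calls compared, since a site listed only in the 2 untreated libraries enters the set through them, so a part of this difference is built in. Over the 6998 windows with the consensus that were called by at least 2 of the other 4 libraries of the CTCF lines, all treated with IAA, the shares were 92.3% and 92.6% against 88.1% and 82.9%, a difference of -6.99 percentage points without overlap of the groups. This choice was added after the data had been seen, and it favours windows that were open with IAA. With at most 2 mismatches the difference was -4.54 percentage points. Over all windows the untreated libraries called 75.0% and 76.8% and the mutated-line libraries 80.6% and 74.9%, which overlapped.

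Loss was most frequent where CTCF sites lay. Of the 118020 windows called by both untreated libraries, 4.96% were lost in the mutated line. Among those with the consensus, 1075 of 7726 (13.9%, 95% Wilson interval 13.2 to 14.7) were lost, 15.8% kept a peak in 1 of the 2 libraries and 70.3% kept it in both. Among those without the consensus, 4773 of 110294 (4.33%, interval 4.21 to 4.45) were lost. The intervals cover counting error over windows only. In the other direction, 6.04% of the 119662 windows called by both mutated-line libraries were new. Of those with the consensus 149 of 5917 (2.52%) were new, and of those without it 7074 of 113745 (6.22%). Lists cut to equal length gave 5647 lost of 107977 windows (5.23%) and 5849 new of 107622 (5.43%), so the surplus of new over lost windows in the deposited lists moved with the list lengths. The counts rest on all 4 libraries: 11023 windows were lost when untreated replicate 1 was left out, 9925 without untreated replicate 2, 13962 without mutated-line replicate 1 and 9866 without mutated-line replicate 2. The corresponding counts of new windows were 12990, 13855, 12267 and 15139. In each of these the lost share was higher with the consensus than without it, and the new share lower.

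The strongest lost site, near the gene model Gm12281, lay 21291 bp from the nearest start, between genes. Its peak had a deposited fold over local background of 16.5 and 17.1 in the untreated libraries, and no peak was listed in the mutated line, where the nearest peak was 5465 bp away or farther. The folds here and below are the authors' own values for a peak within its list. No peak was listed in the depleted control either, while the wild-type line had folds of 9.54 and 5.79. In the serum set, both libraries without IAA listed it (7.84 and 5.80) and neither library with IAA did. Its consensus match had no mismatch.

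A second intergenic site without a mismatch lay 5736 bp from the start of Psma1, which encodes a subunit of the proteasome. It had folds of 10.6 and 12.2 in the untreated libraries, none in the mutated line or the depleted control, and 8.90 and 8.68 in the wild-type line. The serum libraries without IAA listed it at 6.66 and 6.68, and those with IAA did not. The third perfect match, in an intron nearest to the start of Nfrkb, a subunit of the INO80 chromatin remodeller, had folds of 9.28 and 13.5, none in the mutated line or the depleted control, and 6.66 and 5.32 in the wild-type line. These 3 sites were listed in both untreated libraries and both wild-type libraries and in none of the 4 libraries of the mutated line and the depleted control.

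Of the 5 other strongest lost sites, all with 1 mismatch, 4 showed the same absence in the mutated line and the depleted control. The site near Gm37002 had folds of 14.9 and 13.8 in the untreated libraries and 11.4 in 1 wild-type library only. The site near Gm24249 had 11.9 and 13.5, and again 9.85 in 1 wild-type library only. The site 26727 bp from Pdcd1, the gene of the PD-1 immune receptor, had 8.33 and 10.7 against 7.83 and 5.52 in the wild-type line. The site in a coding exon near the start of Mybpc3, the cardiac myosin-binding protein C, had 7.62 and 6.76 against 5.78 and 4.93. In the serum set, the window near Mybpc3 was listed in both libraries without IAA (6.20 and 5.88) and in both with it (4.65 and 3.81). Those near Gm37002 and Pdcd1 were listed in 1 serum library without IAA (8.47 and 5.15) and in none with it, and that near Gm24249 in none of the 4. The window near Spink2, a serine protease inhibitor gene, was different: the mutated-line lists had a peak 131 bp and 3 bp from its edge, 1 depleted library (7.84) and 1 serum library with IAA (4.50) had a peak in it, no serum library without IAA did, and its loss cannot be told apart from a shifted peak edge.

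By the rule of their choice, the retained sites had no peak in the depleted control and peaks in both libraries of the mutated line. The site near 4930564D02Rik had folds of 16.4 and 20.6 in the untreated libraries and 13.9 and 10.2 in the mutated line. The site near Gm26027 had 15.5 and 17.8, and 19.2 and 15.3 in the mutated line. The site near 4933415A04Rik had 11.5 and 12.3, and 10.2 and 9.65, and the site near n-R5s172 had 8.89 and 9.63, and 7.56 and 4.93. The untreated folds of these 8 and 4 windows, chosen as strong ones of each kind, overlapped. Over all members the lost sites were weaker in the untreated lists: their median strength, a percentile within the list described below, was 43.3, against 58.8 in kept sites closed in the depleted control and 68.8 in all kept CTCF sites.

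**Figure D2:**
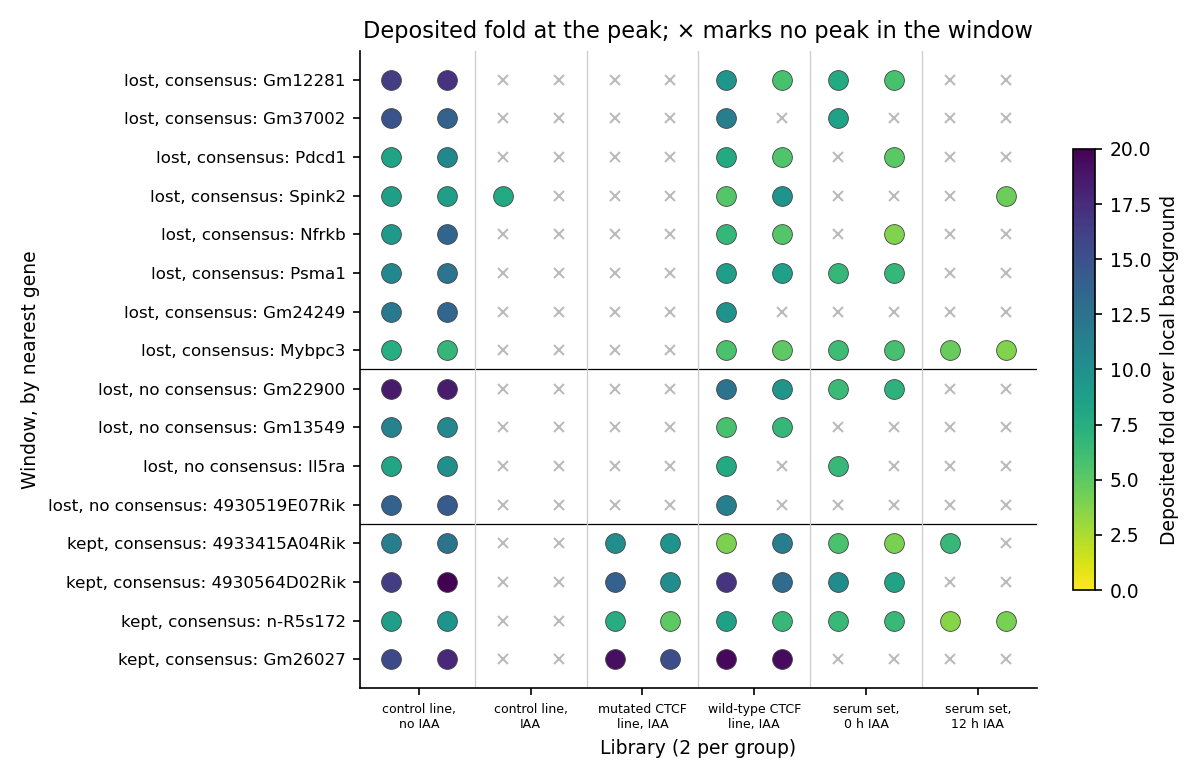
Deposited fold at the peak (colour) in each of 12 libraries (horizontal, 2 per group) for 8 lost windows with the CTCF consensus, 4 lost windows without it and 4 retained windows (vertical, by nearest gene). A cross marks a library with no peak in the window: lost windows have crosses in both mutated-line columns by definition, and 11 of the 12 also have them in both columns of the control line with IAA.

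Weak peaks were lost more often than strong ones, with and without the consensus. Strength was taken as the mean percentile of a peak's −log10 p within the 2 untreated lists. For windows with the consensus the lost share was 33.8% below the 10th percentile and 40.9% at the 10th to 20th. It was 21.9% at the 40th to 50th, 10.9% at the 60th to 70th and 2.63% at the 70th to 80th. For windows without the consensus the shares in the same bins were 27.8%, 17.1%, 3.96%, 1.02% and 0.364%. The consensus therefore went with a higher lost share in each bin from the lowest to the 80th to 90th percentile. The ratio between both kinds was 1.21 in the lowest bin, 5.52 at the 40th to 50th percentile and 10.7 at the 60th to 70th. It was lower again at the 70th to 80th (7.21) and at the 80th to 90th (2.75). In the latter bin only 2 of 899 windows with the consensus and 11 of 13609 without it were lost. Above the 90th percentile 0 of 687 windows with the consensus and 5 of 13549 without it were lost. New windows had a median strength in the mutated-line lists of 22.7 with the consensus and 22.4 without it. This was close to the median untreated strength of the lost windows without the consensus (22.6) and below that of the lost windows with it (43.3).

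**Figure D3:**
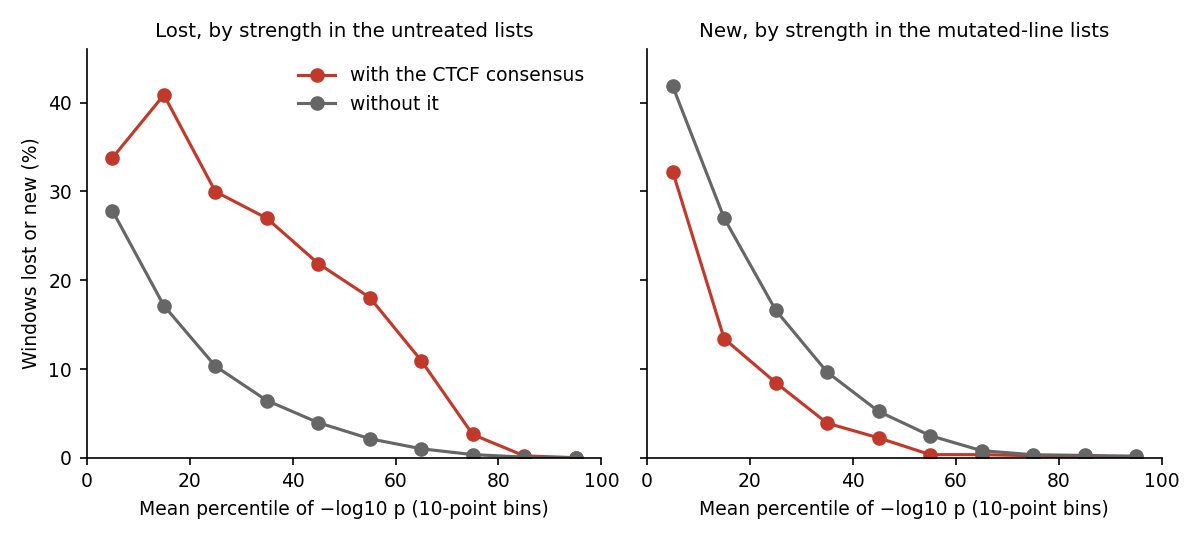
Percentage of windows lost (left, by strength in the untreated lists) and new (right, by strength in the mutated-line lists), in 10-point bins of the mean percentile of −log10 p, for windows with the CTCF consensus (red) and without it (grey). The lost share at the 60th to 70th percentile is 10.9% with the consensus and 1.02% without it, whereas the red line lies below the grey one for new windows.

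The control line with IAA showed what became of these windows without added CTCF. It shares the untreated libraries as its reference, so its calls are given for the members only. The 2 depleted libraries called 5.67% and 5.49% of the 1075 lost windows with the consensus, against 73.4% and 72.3% of the 5429 kept ones. Of the 4773 lost windows without the consensus they called 29.3% and 32.2%. They called 44.8% and 44.3% of the 7223 new windows. Their shares over all 179227 windows were 71.1% and 72.2%, and over all windows with the consensus 48.5% and 48.0%. Lost CTCF sites were thus mostly closed in the depleted control too. A larger part of the other lost windows and of the new ones was listed there, though less than of all windows.

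The wild-type line called 53.8% and 35.2% of the lost windows with the consensus and 97.0% and 93.6% of the kept ones. Over all windows with the consensus its shares were 83.0% and 72.8%, and over all windows 81.1% and 74.9%. Both wild-type libraries called 257 of the 1075 lost sites (23.9%), 1 of the 2 called 442 and neither called 376 (35.0%). Without the consensus the wild-type libraries called 53.8% and 37.8% of the lost windows, which lay close to the shares at CTCF sites. The higher of the 2 wild-type values came from the longer of the 2 lists (155087 against 131432 peaks).

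The serum libraries took no part in choosing or placing the windows, and there, too, lost CTCF sites were called less often with IAA than without it. The libraries without IAA called 46.5% and 36.7% of the 1075 lost sites and those with IAA 5.12% and 5.77%. The groups did not overlap, and they differed by -36.2 percentage points, more than the replicates did (combined SD 6.92; exact permutation p = 0.333, the smallest possible, adjusted 0.417). When a −log10 q of at least 10 was required, the mean shares were 10.2% and 0.688%, and the difference -9.54 percentage points. For kept CTCF sites the shares were 75.7% and 69.9% without IAA and 49.1% and 53.7% with it. For lost windows without the consensus they were 18.5% and 14.3%, and 14.9% and 18.6%, which overlapped. Of all 45495 windows called by both serum libraries without IAA, 6.78% were called by neither with IAA. For lost CTCF sites this was 226 of 275 (82.2%), and for kept CTCF sites 846 of 3470 (24.4%). For lost windows without the consensus it was 146 of 437 (33.4%), against 913 of 37150 kept ones (2.46%). In the reverse direction, of the windows called by both serum libraries with IAA, neither without IAA called 123 of 495 lost windows without the consensus (24.8%) and 11.1% of all windows. The new windows went the other way, from 7.64% and 5.86% without IAA to 11.9% and 14.9% with it (difference 6.65 percentage points, SD 2.51, exact permutation p = 0.333, adjusted 0.417). The rise was smaller with lists of equal length (3.12) and at a −log10 q of at least 10 (2.87). Over all windows the serum libraries also called more with IAA, 35.5% and 39.8% against 34.1% and 30.0%.

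**Figure D4:**
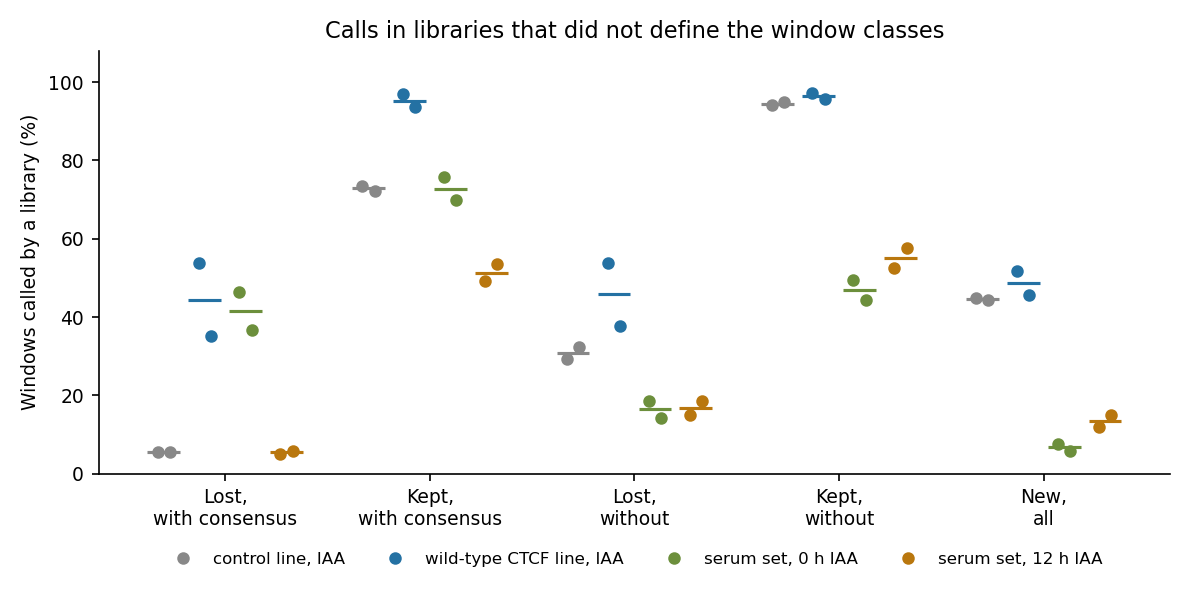
Percentage of windows of each class (horizontal) called by each library that did not define the classes (circles, 1 per library, with a line at the mean of 2). Of the lost windows with the consensus, the control line with IAA calls 5.67% and 5.49%, the serum libraries with IAA 5.12% and 5.77%, and the serum libraries without IAA 46.5% and 36.7%.

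Most of these differences were also present between windows of like strength. Between the 40th and 60th percentile, 436 CTCF sites were lost and 1260 kept. The depleted libraries called 4.36% and 2.75% of the lost and 59.1% and 57.0% of the kept sites. The serum libraries without IAA called 54.4% and 38.1% of the lost and 63.4% and 56.0% of the kept sites. Between the 20th and 40th percentile these shares overlapped (38.8% and 36.1% of the lost, 42.6% and 35.6% of the kept sites), and between the 60th and 80th they did not (54.2% and 45.8%, 81.1% and 74.0%). In the middle range, the serum libraries with IAA called 3.44% and 3.21% of the lost, and 29.6% and 36.7% of the kept sites. Within the kept sites of this range, 401 were called by neither depleted library, and of these the serum libraries with IAA called 9.98% and 13.0%.

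The consensus stood at similar distances from the centre in lost sites and in kept sites closed in the depleted control. The middle of the best match lay within 50 bp of the window centre in 74.7% of the lost sites and in 78.9% of the 1087 kept sites that were called by neither depleted library. In the 3570 kept sites called by both depleted libraries it was 44.1%. Of the sites called by both untreated libraries, 17.4% of the 4609 with the middle of the best match within 50 bp were lost and 8.73% of the 3117 with it farther out. Most matches stood to one side of the centre, 25 to 50 bp from it, in 54.3% of the lost sites when both sides are summed. The summits on which the windows were centred therefore fell more often beside the matched sequence than on it. Near Psma1 and Gm24249 the match lay 0.5 bp from the centre.

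**Figure D5:**
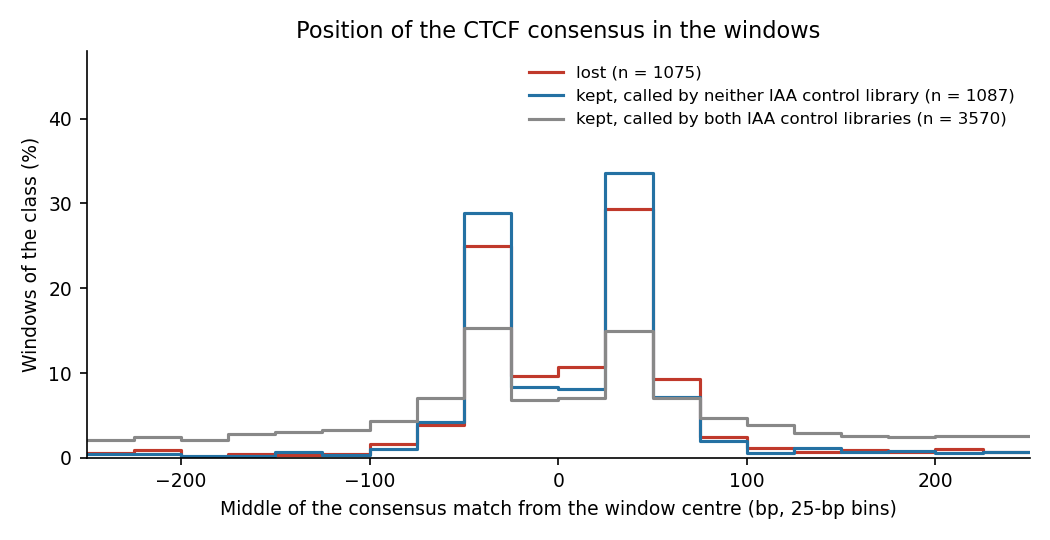
Distance of the middle of the consensus match from the window centre in 25-bp bins (horizontal) and the percentage of windows of each class (vertical). Lost sites (red) and kept sites called by neither depleted library (blue) both peak 25 to 50 bp to each side of the centre, while kept sites called by both depleted libraries (grey) are spread more widely.

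A perfect match was found in 26.7% of the lost sites, 33.9% of the kept sites closed in the depleted control and 20% of the kept sites open there. Of the windows called by both untreated libraries, 14.6% with 0 mismatches were lost, 13.7% with 1 and 5.72% with 2. The shares with 0 and 1 mismatches were thus similar, and that with 2 was lower. Sites open in the depleted control are part of these shares. The base at position 13 of the consensus, counted from 1 at its first letter, was G in 32.9% of the lost sites, in 43.1% of the kept sites closed in the depleted control and in 49.4% of those open there. Between the 60th and 80th percentile of strength, G at this position was present in 25% of 168 lost and 41.8% of 445 kept sites closed in the depleted control. Between the 40th and 60th percentile the values were 33.3% and 44.4%, and between the 20th and 40th they were 37.0% and 47.7%. At position 4, G was present in 46.7% of the lost and 38.6% of the kept sites closed in the depleted control, but in 55.8% of those open there and 51.1% of all kept sites. Within strata of strength the values for lost sites and kept sites closed in the depleted control were 48.5% and 39.7% between the 20th and 40th percentile, 42.2% and 40.9% between the 40th and 60th, and 49.4% and 37.3% between the 60th and 80th, so the difference was small in the middle stratum. These were the 2 positions of the 14 with the widest differences between lost sites and kept sites closed in the depleted control, picked after all had been computed, and no test was made.

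Lost CTCF sites lay mostly away from promoters. Promoters, within 500 bp of a start, made up 3.07% of the lost and 16.4% of the kept CTCF sites. The lost share of CTCF sites was 3.38% at promoters, 12.2% in coding exons, 16.5% in introns and 14.9% between genes within 100000 bp of a start. Without the consensus the lost share was 1.07% at promoters, 5.13% in introns and 4.73% between genes. Sites closed in the depleted control but kept in the mutated line had a promoter share of 3.40%, close to that of the lost ones. The 1075 lost sites were spread over 1059 nearest genes, of which 1043 had 1 such site and 16 had 2. Per autosome the lost share ran from 10.2% on chromosome 17 to 18.97% on chromosome 6.

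Lost CTCF sites also differed from kept ones in base content. The GC content of the windows had a median of 48.1% in lost and 51.5% in kept CTCF sites. It was 48.9% in the kept sites closed in the depleted control, close to the lost ones, and 52.9% in those open there. Of 10 short patterns of other factors that were searched, 8 were found in a smaller share of lost than of kept sites and 2 in a larger one. The 5 given here were picked after their values were seen, and no test was made. CCGGAAG, a core read by ETS factors, was found without mismatch on either strand in 3.07% of lost and 7.20% of kept CTCF sites, against 5.45% of all windows. GCGCATGCG, read by NRF1, occurred in 0.093% of lost and 0.884% of kept sites, against 0.603% of all windows. At a share this low, very few of the 1075 lost sites carried it. GCGTG, the core read by the aryl hydrocarbon receptor, occurred in 26.0% and 39.1%, against 34.2% of all windows. The kept sites closed in the depleted control had 3.86%, 0.184% and 29.3%, close to the lost sites in each case. The 2 patterns found more often in lost sites were AAGATGGC, read by YY1 (4.37% of lost and 3.83% of kept sites, against 3.76% of all windows), and TGANTCA, read by AP-1 (14.2% and 12.7%, against 15.4%). For these, the kept sites closed in the depleted control had 3.96% and 13.8%. AAGATGGC also fits positions 5 to 12 of the CTCF consensus with 1 mismatch, as in the match near Mybpc3. Some of its matches can therefore be the CTCF match itself. Matches of this kind describe the sequence and are not binding sites.

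Among the 4773 lost windows without the consensus, a part resembled CTCF sites with a weaker match. A best match with 2 mismatches was present in 24.3% of them, in 18.1% of kept windows without the consensus and in 13.4% of new ones. Some lay beside a peak of the mutated line: 584 of the 4773 (12.2%) had one less than 250 bp from the window, and a further 165 lacked a summit of each untreated library in the window. The remaining 4024 (84.3%) are called isolated here, a class added after the windows had been inspected. The 4 strongest isolated windows without the consensus each had a match with 2 mismatches within 50 bp of the centre. These matches are shown because they lie in the strongest isolated losses outside the consensus, with the best match in capitals.
Lost near Gm22900, chr3:124496041-124496541, plus strand: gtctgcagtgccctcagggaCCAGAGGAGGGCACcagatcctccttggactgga
Lost near Gm13549, chr2:59424649-59425149, minus strand: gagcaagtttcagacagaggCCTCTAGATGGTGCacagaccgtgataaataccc
Lost near Il5ra, chr6:106645473-106645973, minus strand: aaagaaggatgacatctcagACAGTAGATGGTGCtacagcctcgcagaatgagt
Lost near 4930519E07Rik, chr5:40952837-40953337, minus strand: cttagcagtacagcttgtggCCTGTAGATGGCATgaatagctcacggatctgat

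The window near Gm22900 had folds of 18.6 and 18.5 in the untreated libraries and 12.4 and 9.55 in the wild-type line. The nearest mutated-line peak was 66063 bp away, and the depleted control had none in the window. Both serum libraries without IAA listed it, and neither with IAA. The window near Gm13549 had 11.2 and 10.6, with 5.83 and 6.67 in the wild-type line. The window in an intron 99386 bp from the nearest start, that of Il5ra, the interleukin-5 receptor alpha chain, had 8.25 and 10.0, and 7.95 in 1 wild-type library. The window 328149 bp from 4930519E07Rik had 13.8 and 14.4, and 11.4 in 1 wild-type library. All 4 were listed in both untreated libraries and at least 1 wild-type library and in none of the 4 libraries of the mutated line and the depleted control.

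The 4 strongest lost windows without the consensus by the same ranking but without this requirement included 3 with a mutated-line peak close by. They lay 697 bp from the start of Tmbim6, 1456 bp from Gm8518 and 906 bp from Pld6, and in each both mutated-line lists had a peak within 170 bp of the window. Only the one near Gm22900 was isolated.

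Few promoters were lost outright. The 4 protein-coding promoters that ranked highest were those of Tcf7l2, a transcription factor of the Wnt pathway, Col20a1, a collagen chain, Morc1, a germline factor that silences transposons, and Otop1, a proton channel. The windows at Tcf7l2 and Col20a1 had mutated-line peaks within 80 to 272 bp of their edges. Morc1 had folds of 5.52 and 6.80 in the untreated libraries and no peak in the mutated line, the depleted control, the wild-type line or the serum libraries. Of the 4 libraries of the series labelled shluci, 3 listed it. Otop1 had 6.32 and 6.99, with peaks in both depleted libraries (3.76 and 3.66) and both wild-type libraries (5.90 and 4.01). It counted as isolated, but mutated-line peaks lay 250 and 334 bp from its edge. The promoter window of Slc25a45, a gene of the mitochondrial carrier family, held a CTCF consensus with 1 mismatch and had 6.72 and 8.50, with 2.82 and 3.40 in the depleted control and 6.49 and 3.69 in the wild-type line. The promoter window of Gm9837 held a perfect match and had 6.55 and 8.16, with no peak in the depleted control or the wild-type line. Both serum libraries without IAA listed it (4.10 and 4.05), as did 1 with IAA (3.62) and all 4 shluci libraries. Of 216 lost promoter windows 163 were isolated.

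New windows were mostly weak, and the strongest ones lay beside untreated peaks. The 4 strongest without the consensus lay near Gm24932, 4930426I24Rik, Ccdc8 and Gm15612, and each had an untreated peak within 73 to 166 bp of its edge. The 4 strongest new promoter windows, at Zbtb24, Gtf2a1, B4galnt4 and Fgfr3, lay 457 to 470 bp from the start, and both untreated lists had a peak within 272 bp of each window. The 4 strongest new windows with the consensus, near Fam227a, Gtsf1l, Fam114a2 and Gm45168, also failed the criterion for isolated windows, with untreated peaks 40 to 383 bp away. Of all 7223 new windows, 5734 (79.4%) were isolated.

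The strongest isolated new window lay 2513 bp from Gsdmc, a gene of the pore-forming gasdermin family, with folds of 15.7 and 13.7 in the mutated line and the nearest untreated peak 2083 bp away. The depleted control also had peaks there (13.6 and 11.7), as did the wild-type line (10.5 and 7.52), and the serum libraries with IAA but not those without. A window in an intron 40420 bp from Moxd2 had 12.3 and 11.5 in the mutated line, 5.30 and 7.75 in the depleted control and 5.40 and 5.21 in the wild-type line. A window near Gm32431 had 15.8 and 9.15, with 10.6 and 14.9, and 18.4 and 9.26 in the same groups. The window near Gm38027 had 13.1 and 10.98, with 6.56 in 1 depleted library and 13.4 and 9.26 in the wild-type line. These peaks were thus present in most IAA-treated libraries of the CTCF lines, whichever transgene they carried, and in neither untreated library.

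Of the strongest isolated new promoter windows, that of Akp3, an intestinal alkaline phosphatase, had 9.84 and 7.32 in the mutated line, 7.06 and 5.07 in the depleted control and 6.68 and 5.79 in the wild-type line. That of Sp100, a component of PML nuclear bodies, had 7.40 and 6.39 in the mutated line, no peak in the depleted control and 5.10 in 1 wild-type library. Those of Tenm2, a teneurin adhesion receptor, and Klhdc10, a kelch-domain protein, had 6.95 and 7.84, and 6.68 and 7.58. The depleted control listed Tenm2 in 1 library and Klhdc10 in neither. The wild-type line listed Tenm2 in 1 library (7.63) and Klhdc10 in both (7.63 and 10.4).

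Most marker genes of embryonic stem cells had an open promoter in both groups. Of 12 such genes, 10 had a called window within 500 bp of a start in both untreated libraries and 11 in both mutated-line libraries. Promoter calls did not set the cell types apart, since 7 of 8 neural and 6 of 6 trophoblast marker genes were called in both untreated libraries as well. In both mutated-line libraries these counts were 7 and 5. For the primed state and the Nodal pathway, 6 of 8 genes were called in the untreated and 5 in the mutated-line libraries. For endoderm and mesoderm these were 6 and 8 of 8. The share over all genes is not given here. Windows nearest to the stem cell genes were lost in 7 of 143 cases and new in 7 of 149, close to the 4.96% and 6.04% of all windows. The lost share was 4 of 55 for trophoblast genes, 2 of 37 for neural genes, 1 of 51 for endoderm and mesoderm genes and 0 of 27 for genes of the primed state and the Nodal pathway. New windows numbered 4 of 51, 0 of 36, 2 of 52 and 1 of 28 in these lists. The counts are too small to rank the lists.

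Single windows at these genes did change. At the promoter of Pou5f1, which encodes the pluripotency factor Oct4, a window 55 bp from the start (chr17:35505713-35506213) had no peak in either untreated library and folds of 2.66 and 2.40 in the mutated line. The depleted control (5.80 and 3.30), the wild-type line (2.71 and 2.24) and the serum libraries with IAA (3.34 and 2.21) also listed it, and the serum libraries without IAA did not. Untreated peaks lay 354 bp and 156 bp from its edge, so a widened neighbouring peak and a separate one cannot be told apart. The window holds a consensus match with 1 mismatch, shown because it is the one CTCF match at a pluripotency promoter that gained a peak.
Pou5f1 promoter: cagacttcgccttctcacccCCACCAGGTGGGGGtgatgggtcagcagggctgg

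Near Esrrb, an orphan nuclear receptor of the naive state, 3 windows were lost and 1 was new. The lost ones lay 14392, 49483 and 66241 bp from a start, and their untreated folds ran from 2.20 to 5.09. The one at 49483 bp, which holds the consensus, had mutated-line peaks 80 and 9 bp from its edge, and a shifted edge cannot be told apart from a loss. The new one likewise had untreated peaks 133 and 19 bp from its edge. A window 20781 bp from Zfp42, which encodes the naive marker Rex1, had folds of 2.36 and 2.53 in the untreated libraries and of 2.70 and 2.87 in the serum libraries without IAA, and was listed in none of the 8 libraries with IAA. A window 17607 bp from Nr5a2, a nuclear receptor, was lost. It had 3.68 and 3.07 and a peak of 3.25 in 1 wild-type library. Another window, 47473 bp from a start of Nr5a2, was new, with 3.88 and 3.99 in the mutated line. Klf2 and Tfcp2l1 had 1 lost window each, Klf4 had 1 new window and Prdm14 had 2. These windows were all below the 40th percentile of strength. The strongest change at a stem cell gene was a new window 787 bp from Tbx3, a T-box factor of the naive state, with folds of 15.3 and 10.5 in the mutated line. The depleted control listed it at 12.2 and 2.65 and 1 wild-type library at 14.9, and untreated peaks lay 146 and 182 bp from its edge.

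At the promoter of Krt8, a keratin of the early trophoblast, a window with the consensus 24 bp from the start had folds of 2.35 and 3.23 in the untreated libraries and no peak in any of the other 6 libraries of the CTCF lines. The serum libraries without IAA listed it at 4.07 and 3.22, and 1 with IAA at 2.84. The promoter of Hoxa5, a homeobox gene, had a lost window with the consensus, at folds of 3.25 and 3.99, but peaks in 1 depleted library (5.89) and both wild-type libraries (3.83 and 4.36). Mutated-line peaks lay 82 and 46 bp from its edge, so a loss and a shifted peak edge cannot be told apart there. A stronger lost window without the consensus, 5732 bp from Hoxa4, had 8.38 and 11.4, no peak in any IAA-treated library of the CTCF lines, and peaks in all 4 serum libraries (6.52, 3.87, 3.16 and 3.43). Over the 39 Hox genes 2 of 74 windows were lost (2.70%) and 5 of 74 new (6.76%), against 4.96% and 6.04% of all windows.

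Over 18 imprinted genes, 5 of 64 windows were lost (7.81%) and 4 of 63 new (6.35%), against 4.96% and 6.04% of all windows. None of the 5 held the consensus, and those near Meg3 and Airn had mutated-line peaks 110 to 357 bp from their edges and did not count as isolated. Both windows of Mest, a paternally expressed gene, were lost: the one 86 bp from the start had folds of 4.59 and 5.09 in the untreated libraries, 4.04 and 4.17 in the depleted control and 3.18 in 1 wild-type library. Over 13 genes of CTCF and cohesin 1 of 43 was lost (2.33%), near Pds5a, a regulator of cohesin release, and 3 of 46 were new (6.52%). Targets of the aryl hydrocarbon receptor, a sensor of aromatic compounds that include indole derivatives, gave 2 lost of 20 and 1 new of 20, counts too small to set against the shares of all windows. The new one lay 702 bp from Ahrr, the repressor of that receptor, with folds of 5.79 and 9.33 in the mutated line, 10.8 and 10.7 in the depleted control and 6.20 and 5.84 in the wild-type line, and with an untreated peak 126 bp from its edge.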

How the data were processed

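Per the submitters' processing notes, reads were trimmed with Trim Galore, aligned with Bowtie2 to mm10 and peaks called with MACS2. No versions or settings were given in the sources used here. The deposited narrowPeak lists, 1 per library, give intervals, summits, a fold (ratio) over local background and −log10 p and −log10 q values, made by the authors for each peak within its own list. No read counts were given.

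Windows of 501 bp were placed on summits of the 8 lists of the CTCF lines without overlap, best-supported summits first. Of 222072 windows, 179227 were called, by an overlap of at least 1 bp, in at least 2 libraries. The CTCF consensus (14 positions) was searched in GRCm38 on both strands with at most 1 mismatch. Gene starts came from GENCODE M21 (basic set). Work was done in Python 3.11.15 with numpy 2.4.6 and pandas 2.3.3, and the scripts were tested on simulated lists.

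Single values per library were compared by two-sided exact permutation of 2 against 2 libraries. Named windows were the strongest of those called by one group in lists of equal length (120137 peaks) and by neither deposited list of the other: 8 lost and 4 retained with the consensus, 4 of each other kind, without chromosomes 8, 18, X and Y, plus the windows at listed genes. The isolated class, its 4 strongest windows per kind and the windows chosen by the other 4 libraries were added after values were seen. Members and lists were chosen with earlier results of these data known. The numbers of the replicates did not pair them: deviations of equally numbered libraries correlated at -0.048 over 100040 windows. The serum set, in which levels of calls are lower, was compared only within itself. The 8 shRNA lists were not used here.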

Additional observations from a re-analysis of the deposited data

Results flagged for a closer look

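Over all 179227 windows, the share called by a library moved in opposite directions with IAA in the control line and in the serum set. In the control line it was 75.0% and 76.8% without IAA and 71.1% and 72.2% with it, a mean difference of -4.23 percentage points. In the serum set it was 34.1% and 30.0% without IAA and 35.5% and 39.8% with it, a mean difference of 5.58 percentage points. The peak lists also became shorter with IAA in the control line (132912 and 139221 against 120137 and 128794 peaks) and longer in the serum set (69153 and 59786 against 71773 and 82502). The difference between both sets was not tested, and the part of the list lengths in it was not tested.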

How the results depend on the processing

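The lower share of peaks with the CTCF consensus, the lower call share of CTCF windows and the serum difference at lost CTCF sites kept their direction, without overlap of the groups, under lists of equal length, a −log10 q of at least 10, other mismatch limits and a consensus within 50 bp. In every setting the lost share was higher with the consensus than without it and the new share lower. Sizes moved. The difference in the share of peaks with the consensus was -0.506 percentage points with no mismatch, and that in the call share of CTCF windows -4.54 with at most 2 and -6.99 in windows chosen by the other 4 libraries. At a −log10 q of at least 10 the serum difference at lost CTCF sites was -9.54 percentage points (-36.2 with the deposited lists). The serum rise at new windows (6.65) was 3.12 with lists of equal length and 2.87 at that q. With lists of equal length the lost shares were 15.1% (consensus) and 4.51% (none) and the new shares 2.00% and 5.62%. At a −log10 q of at least 10 the lost share with the consensus was 19.8% and 4423 windows were new. With at least 50% of the window covered, 3734 windows were lost, with lost shares of 12.9% and 3.99% and new shares of 3.54% and 7.41%. With a summit inside the window these were 15.8%, 5.43%, 3.05% and 6.91%. For isolated windows the shares without the consensus were 4.03% lost and 5.56% new. With no mismatch, 4.79% were lost without the consensus and 1.48% new with it. With at most 2 mismatches the 4 shares were 7.99%, 4.01%, 4.26% and 6.52%. With all 14 matched positions within 50 bp of the centre, 17.6% and 4.49% were lost and 1.72% were new with it. The causes were not tested.

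Leaving out 1 library asks for fewer calls, and gave 9866 to 13962 lost and 12267 to 15139 new windows. Lost shares were 15.98% to 24.2% with the consensus and 6.81% to 10.96% without it. New shares were 3.37% to 5.58% and 9.44% to 11.9%. Libraries with the mitochondrial-like peak alone gave 9866 lost windows. The difference in promoter share ranged from -0.638 to 0.314 percentage points and reversed without untreated replicate 1 (0.063) or mutated-line replicate 1. With the replicate number as a block, the differences were unchanged by construction (-1.75, -0.162 and -16.1 percentage points), and the smallest possible p was 0.5. Read depth was not given, so an absent peak cannot be told apart from one below the calling threshold.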
